A study of Mus musculus with 5 samples.

Results

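The BAF (SWI/SNF) complexes slide and evict nucleosomes, and several of their accessory positions can be filled by 1 of several closely related genes, or paralogues. The genes described here are the 9 paralogues Smarcd1, Smarcd2, Smarcd3, Actl6a, Actl6b, Bcl7a, Bcl7b, Bcl7c and Ss18l1, taken by gene symbol from 32286 features counted in single cells of 5 mouse synovial sarcomas (SyS). Every tumour came from an hSS2 mouse, in which Cre recombinase switches on the human SS18::SSX2 fusion from the Rosa26 locus. TATCre protein was injected into the limb at 8 days of life, so no promoter restricted which limb cells recombined. Histology comes from the labels, with 2 tumours in BP (biphasic), 1 in MP (monophasic), 1 in MP+BP and 1 in PD+MP (poorly differentiated with monophasic). All 5 carry the fusion and none is a control without it, and each tumour is 1 library. Tumours were harvested at morbidity. Mice were of a mixed CB57Bl/6-svJ strain and 2 to 6 months old, a range stated for all mice and not for each tumour.

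BAF complexes hold 1 SMARCD (BAF60) protein, which links the complex to transcription factors, and SMARCD3 (BAF60c) is known for its part in heart and skeletal muscle, while SMARCD2 (BAF60b) is needed for the maturation of granulocytes. ACTL6A (BAF53a) is an actin-like subunit of dividing progenitors that ACTL6B (BAF53b) replaces when neurons leave the cell cycle. SS18, which the translocation of human tumours joins to an SSX gene, is replaced by its paralogue SS18L1 (CREST) in the same switch. In these mice the fusion is expressed as a cDNA from Rosa26 and not from the Ss18 gene. The BCL7 proteins are small subunits without a known catalytic role, and BCL7A was first found at a translocation in B cell lymphoma. SS18::SSX takes the position of SS18 in the complex.

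Cells were sorted into classes by markers, and UMIs (unique molecular identifiers, each standing for 1 captured RNA molecule) were summed per tumour and class. Of 51670 called cells, 39559 were kept, with 24907 SyS-like cells, 1251 pericyte-like (mural) cells, 2431 endothelial-like cells and 2969 macrophage-like cells. Sums per tumour held 57760796 to 88283477 UMIs in SyS-like cells, 1903574 to 4952183 in macrophage-like, 582694 to 5698007 in endothelial-like and 255141 to 2737668 in pericyte-like cells. In PD+MP there were only 38 pericyte-like and 81 endothelial-like cells, and its values in these classes rest on few UMIs. Pairs of libraries shared 15 to 33 cell barcodes, at most 0.302% of the smaller library. Levels are given as scaled CPM, the UMIs of a gene relative to the total UMIs of its sum (counts per 1e6, CPM) after TMM scaling, which adjusts the total so that most genes do not differ. Since 3′ counts depend on how each transcript is captured, levels are compared between classes and tumours and not between genes.

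EGFP, a reporter that the hSS2 allele is known to carry, served as a check of the tumour class. It lay between 25.2 and 35.9 scaled CPM in SyS-like cells of the 5 tumours. Its mean in the other classes came to 7.93% of the SyS-like mean in pericyte-like cells, 3.34% in endothelial-like cells and 7.03% in macrophage-like cells. The summed CPM of the 12 SyS markers ran from 3432 to 5027 in SyS-like cells, from 181 to 597 in pericyte-like, from 100.04 to 253 in endothelial-like and from 124 to 176 in macrophage-like cells, and of these markers 1 was at 0 in endothelial-like cells. Pericyte-like cells of MP+BP held 7.57 scaled CPM of EGFP (8 UMIs), against at most 1.51 in the pericyte-like cells of the other tumours. How much of a member's low level in a class came from free RNA or mixed droplets was not tested.

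Smarcd3 made up a larger share of the SMARCD family's UMIs in SyS-like and pericyte-like cells than in endothelial-like and macrophage-like cells. The latter classes held more Smarcd2. In SyS-like cells Bcl7a was higher than in the other 3 classes, and Bcl7c than in endothelial-like and macrophage-like cells, with a call against pericyte-like cells that was lost in 11 of 16 alternatives. Bcl7b was lower with TMM scaling but not called with library totals alone. Actl6a was present in every class, Actl6b was close to 0 in all of them, and the Ss18l1 share of the Ss18 and Ss18l1 UMIs was similar throughout. The plot of levels by class shows the 9 genes in all 20 sums.

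**Figure D1:**
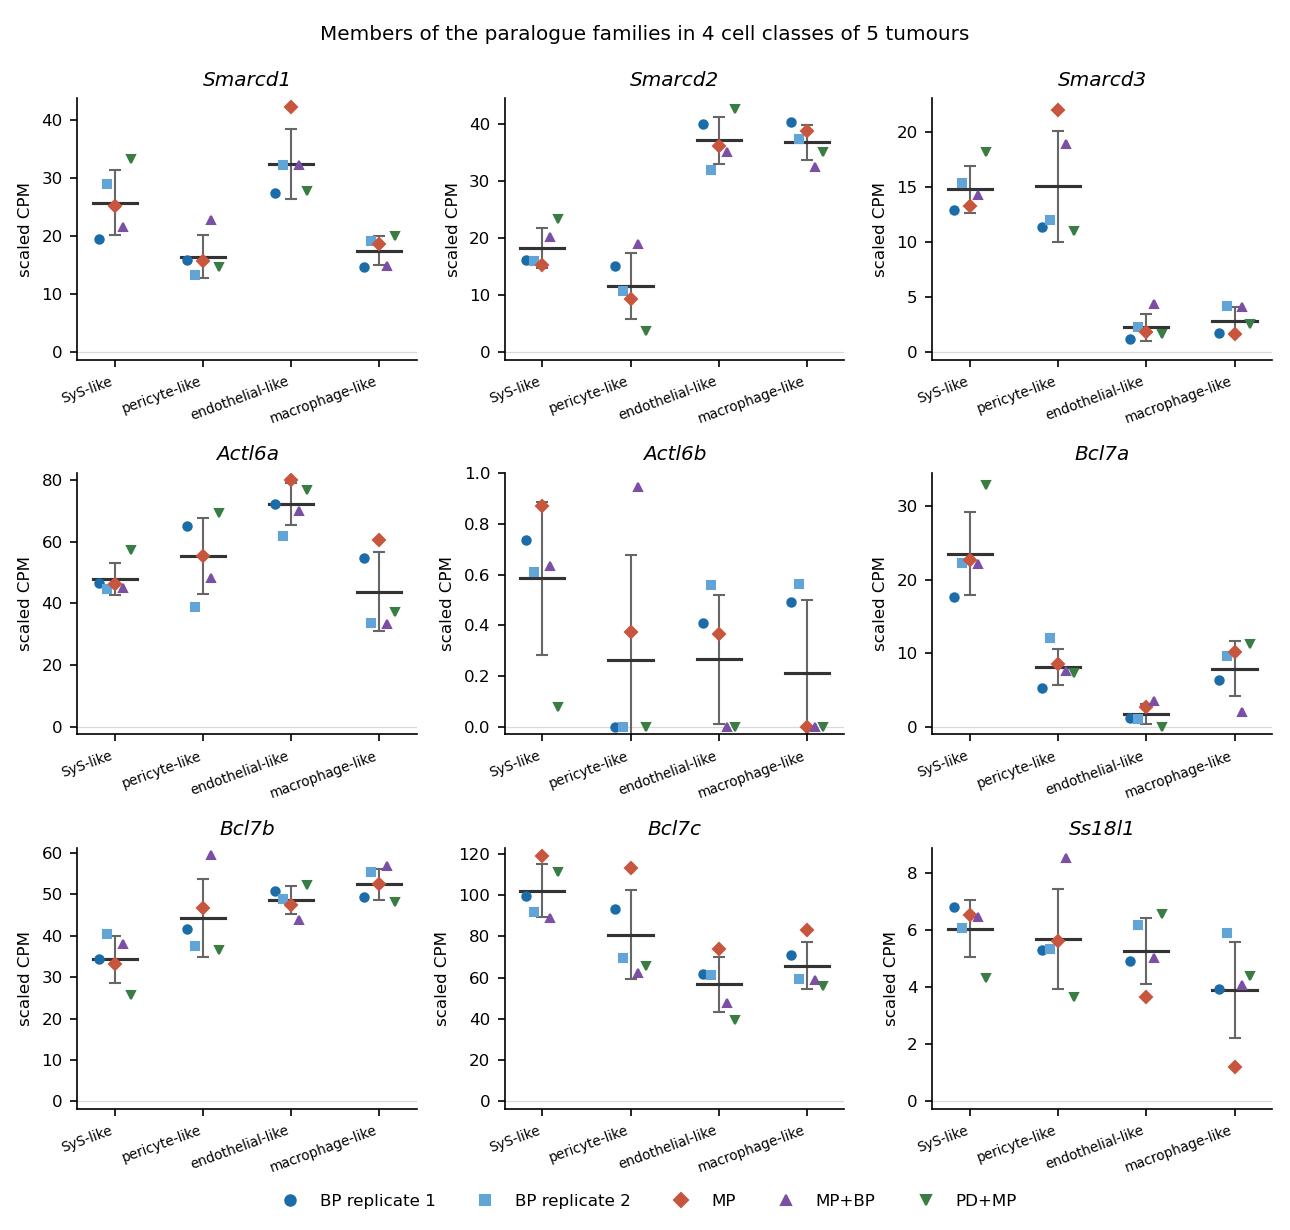
Scaled CPM (y axis, linear) of the 9 genes in SyS-like, pericyte-like, endothelial-like and macrophage-like cells. Points are the 5 tumours, the horizontal line is their mean and the bar 1 SD; for Smarcd3 every SyS-like and pericyte-like point lies above every endothelial-like and macrophage-like point.

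Class sums were compared in 1 edgeR quasi-likelihood fit with the tumour as a block, and a gene is called when its Benjamini-Hochberg adjusted p over all genes tested is under 0.05. Of the 9 genes, 8 passed the filter on low counts in this fit, and Actl6b did not. A fold change refers to the class sums, and less RNA per cell cannot be told apart from fewer expressing cells. Shares and medians over all genes are over the 11939 tested genes that, like the members, were not used to cluster the cells. SyS-like cells had 3 members higher and 4 lower than endothelial-like cells, where 33.7% of all genes were called higher and 24.3% lower. Against macrophage-like cells, 5 members were higher and 2 lower, beside 39.6% and 27.3% of all genes. Against pericyte-like cells, 3 were higher and 1 lower, beside 29.5% and 15.2%. Large shares of the transcriptome thus separated these classes, and the counts of members alone say little. Between pericyte-like and endothelial-like cells 3 members were higher in the former and 3 lower (all genes 16.3% and 20.2%), between pericyte-like and macrophage-like cells 1 and 1 (24.4% and 27.8%), and between endothelial-like and macrophage-like cells 2 and 1 (27.5% and 26.5%).

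The scaling bears on small differences. With library totals alone in place of TMM, the median log2 difference over all genes moved from 0.21 to 0.43 against pericyte-like cells, from 0.14 to 0.42 against endothelial-like cells and from 0.19 to 0.76 against macrophage-like cells. The share of calls that were higher in SyS-like cells rose with it, from 65.9% to 79.9%, from 58.2% to 74.0% and from 59.1% to 82.0%. It rose from 46.7% to 68.5% for pericyte-like against macrophage-like cells and from 51.0% to 69.0% for endothelial-like against macrophage-like cells. The share of a paralogue in its own family does not depend on this choice, and is given by class for each family.

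Smarcd3 showed the widest difference between classes within the SMARCD family. Its scaled CPM in SyS-like cells was 12.9 for BP replicate 1, 15.4 for BP replicate 2, 13.3 for MP, 14.3 for MP+BP and 18.2 for PD+MP. Pericyte-like cells of BP replicates 1 and 2 had 11.3 and 12.03, those of MP 22.03, those of MP+BP 18.9 and those of PD+MP 10.97, the last from 3 UMIs. Endothelial-like cells held 1.23 to 4.38 (1 to 14 UMIs) and macrophage-like cells 1.62 to 4.21 (4 to 15 UMIs). Neither range overlapped that of SyS-like or pericyte-like cells. The mean in endothelial-like cells was 15.3% and that in macrophage-like cells 19.1% of the SyS-like mean, above the 3.34% and 7.03% of EGFP in the same sums. On the log2 scale Smarcd3 was higher in SyS-like cells by 2.73 (SE 0.29, adjusted p = 2.33e-07) than in endothelial-like and by 2.43 (SE 0.28, adjusted p = 4.77e-07) than in macrophage-like cells. Against pericyte-like cells the difference was -0.11 (SE 0.26, adjusted p = 0.755), and its sign changed when MP was left out (0.16).

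Smarcd2 ran the other way. Its scaled CPM lay between 15.2 and 23.4 in SyS-like cells, between 31.97 and 42.6 in endothelial-like cells and between 32.5 and 40.3 in macrophage-like cells. All 5 tumours had less Smarcd2 in SyS-like cells than in either class, and the ranges did not overlap. The log2 difference was -1.03 in both comparisons (SE 0.17, adjusted p = 5.77e-05 against endothelial-like and 3.79e-05 against macrophage-like cells). With library totals alone it shrank to -0.75 and -0.46 and was still called. Pericyte-like cells had the least, 3.66 to 18.9 scaled CPM from 1 to 25 UMIs, and differed from endothelial-like cells by -1.56 (SE 0.22, adjusted p = 1.71e-05) and from macrophage-like cells by -1.56 (SE 0.22, adjusted p = 8.09e-06). The difference between SyS-like and pericyte-like cells, 0.53 (SE 0.22), had an adjusted p of 0.0520 and was called in 5 of 16 alternatives.

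Smarcd1 (BAF60a), the remaining SMARCD gene, was highest in endothelial-like cells, with a mean of 32.4 ± 5.96 scaled CPM (SD, n = 5). The mean was 25.7 ± 5.58 in SyS-like, 17.5 ± 2.49 in macrophage-like and 16.5 ± 3.64 in pericyte-like cells. Endothelial-like cells exceeded pericyte-like and macrophage-like cells in every tumour, with a log2 difference of -0.96 for pericyte-like minus endothelial-like (SE 0.19, adjusted p = 5.33e-04) and 0.92 for endothelial-like minus macrophage-like (SE 0.17, adjusted p = 1.43e-04). SyS-like cells were higher than macrophage-like cells by 0.54 (SE 0.16, adjusted p = 0.00615). The SyS-like level was 0.58 above the pericyte-like one (SE 0.19, adjusted p = 0.0149) and differed from the endothelial-like one by -0.38 (SE 0.16, adjusted p = 0.0458). Both calls were weak. The former was lost without BP replicate 2, MP or PD+MP (adjusted p up to 0.107) and the latter without any 1 tumour other than PD+MP (adjusted p up to 0.252). With library totals alone the difference from endothelial-like cells shrank to -0.10 (adjusted p = 0.606). That from pericyte-like cells was then 0.80 (adjusted p = 0.00148).

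As shares of the family's UMIs, Smarcd3 took 25.3% ± 0.8498 (SD, n = 5) in SyS-like cells and 35.1% ± 7.59 in pericyte-like cells, but 3.17% ± 1.75 in endothelial-like and 5.01% ± 2.32 in macrophage-like cells. The SyS-like share was nearly the same in every tumour, from 24.3% in PD+MP to 26.5% in BP replicate 1. Smarcd2 took 31.1% ± 3.83 in SyS-like, 25.8% ± 9.42 in pericyte-like, 51.9% ± 6.37 in endothelial-like and 64.4% ± 4.13 in macrophage-like cells. Smarcd1 took 43.6%, 39.1%, 45.0% and 30.5% in the same order. The Smarcd3 share was higher in SyS-like than in endothelial-like cells by 22.1 percentage points (SD 1.90) and than in macrophage-like cells by 20.3 (SD 2.44), in 5 of 5 tumours each, and differed from that in pericyte-like cells by -9.83 (SD 8.27), lower in 5 of 5. With 5 pairs an exact two-sided sign-flip permutation test cannot go below p = 0.0625, which all 3 differences reached, and over the 48 share differences computed the smallest adjusted p was 0.115.

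**Figure D2:**
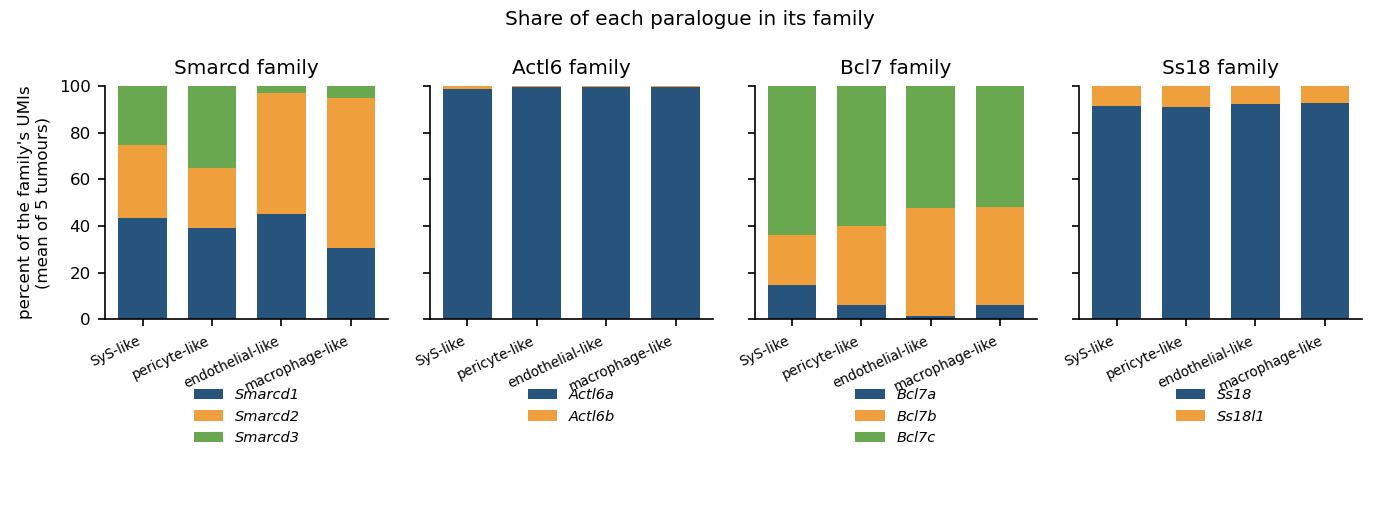
Mean percent of a family's summed UMIs that each paralogue contributed (y axis, 0 to 100), by cell class, averaged over 5 tumours. Smarcd3 made up 25.3% in SyS-like and 35.1% in pericyte-like cells against 3.17% and 5.01% in endothelial-like and macrophage-like cells, and Bcl7a was largest in SyS-like cells.

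For Smarcd2 and Smarcd3, the paralogues with opposite patterns over the classes, the sequence around a RefSeq transcript start is shown. Both stretches lie within the annotated gene, and any link between them and the levels was not tested. Each runs from 250 bases before to 50 after the start of a RefSeq transcript (GRCm38.p6), with every CG dinucleotide in capitals.

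Smarcd2, chr11:106267583-106267882, minus strand: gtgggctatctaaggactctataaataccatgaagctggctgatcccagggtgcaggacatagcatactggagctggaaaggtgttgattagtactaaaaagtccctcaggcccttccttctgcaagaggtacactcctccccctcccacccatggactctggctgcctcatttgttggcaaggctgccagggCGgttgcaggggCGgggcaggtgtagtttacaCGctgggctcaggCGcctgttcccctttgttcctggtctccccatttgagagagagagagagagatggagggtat

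Smarcd3, chr5:24601953-24602252, minus strand: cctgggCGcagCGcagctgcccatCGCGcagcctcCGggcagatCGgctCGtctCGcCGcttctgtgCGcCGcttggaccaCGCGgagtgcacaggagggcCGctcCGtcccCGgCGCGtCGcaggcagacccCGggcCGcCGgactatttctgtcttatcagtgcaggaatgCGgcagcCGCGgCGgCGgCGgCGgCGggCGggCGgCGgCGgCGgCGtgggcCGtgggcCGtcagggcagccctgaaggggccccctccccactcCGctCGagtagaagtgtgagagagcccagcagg

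The Smarcd2 stretch holds 4 CG, and 38.0% of 32851 such stretches in the genome hold as few. The Smarcd3 stretch holds 40, and 3.91% hold as many. Both genes have further starts in GENCODE M21, whose outermost start lies 5340 bases upstream for Smarcd2 and 22409 bases upstream for Smarcd3, and which start these cells used was not measured. Of the other members, Smarcd1, Actl6a, Actl6b, Bcl7b, Bcl7c and Ss18l1 have such an entry, with 21 to 40 CG. Smarcd3 (ENSMUSG00000028949) spans chr5:24590818-24624411 on the minus strand (GRCm38) and overlaps Chpf2 on the other strand. Chpf2 held 4389 UMIs in the 4 classes against 6535 for Smarcd3. Smarcd2 (ENSMUSG00000078619) spans chr11:106263179-106272972 on the minus strand and overlaps no other annotated gene.

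Bcl7a had the widest difference of all members, and every SyS-like value exceeded every value of the other 3 classes. In SyS-like cells it was 17.7 scaled CPM for BP replicate 1, 22.3 for BP replicate 2, 22.7 for MP, 22.1 for MP+BP and 32.9 for PD+MP. Pericyte-like cells held 5.30 to 12.03 (2 to 23 UMIs), macrophage-like cells 2.03 to 11.3 (3 to 34 UMIs), and endothelial-like cells 0 to 3.44 (0 to 15 UMIs). The endothelial-like mean was 7.25% of the SyS-like mean, beside 3.34% for EGFP. The log2 difference was 3.48 (SE 0.34, adjusted p = 9.38e-08) against endothelial-like, 1.54 (SE 0.29, adjusted p = 1.13e-04) against macrophage-like and 1.4997 (SE 0.33, adjusted p = 0.00124) against pericyte-like cells. All 3 calls were kept in each of their 16 alternatives. Pericyte-like cells were above endothelial-like cells by 1.99 (SE 0.42, adjusted p = 0.00104), and endothelial-like differed from macrophage-like cells by -1.94 (SE 0.38, adjusted p = 2.44e-04). Bcl7a (ENSMUSG00000029438, chr5:123343834-123374992, plus strand) overlaps 5830487J09Rik on the same strand, and these and antisense features together held 1153 UMIs in the 4 classes against 10315 for Bcl7a.

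Bcl7c was higher in SyS-like cells and Bcl7b lower. Bcl7c had 102 ± 12.8 scaled CPM in SyS-like cells (SD, n = 5), 80.8 ± 21.7 in pericyte-like, 65.7 ± 11.4 in macrophage-like and 56.7 ± 13.5 in endothelial-like cells. It exceeded each other class in 5 of 5 tumours, by 0.85 (SE 0.12, adjusted p = 8.05e-06) against endothelial-like, 0.66 (SE 0.12, adjusted p = 8.30e-05) against macrophage-like and 0.35 (SE 0.12, adjusted p = 0.0260) against pericyte-like cells on the log2 scale. The last call was lost in 11 of 16 alternatives, among them without BP replicate 2, MP+BP or PD+MP (adjusted p up to 0.375). Pericyte-like cells in turn held more than endothelial-like ones, by 0.49 (SE 0.13, adjusted p = 0.00494).

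Bcl7b had 34.3 ± 5.65 scaled CPM in SyS-like cells (SD, n = 5), 44.4 ± 9.42 in pericyte-like, 48.6 ± 3.31 in endothelial-like and 52.5 ± 3.74 in macrophage-like cells. The log2 difference of SyS-like cells was -0.61 (SE 0.13, adjusted p = 3.53e-04) against macrophage-like, -0.49 (SE 0.13, adjusted p = 0.00307) against endothelial-like and -0.39 (SE 0.14, adjusted p = 0.0289) against pericyte-like cells. None of these calls held with library totals alone, where the differences were -0.04, -0.21 and -0.17 (adjusted p = 0.821, 0.159 and 0.324). In unscaled CPM the means were 41.2 in SyS-like and 42.3 in macrophage-like cells. The call against pericyte-like cells was also lost without BP replicate 1, MP or MP+BP (adjusted p up to 0.118).

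Shares within the BCL7 family also differed between classes, and by construction no scaling can change them. A lower share of a gene can come from higher levels of its paralogues alone. Bcl7a took 14.6% ± 2.92 in SyS-like cells (SD, n = 5), 6.30% ± 2.38 in pericyte-like, 6.24% ± 3.05 in macrophage-like and 1.58% ± 1.38 in endothelial-like cells. Bcl7b took 21.7% ± 4.63 in SyS-like cells against 33.6% ± 7.205, 41.9% ± 4.79 and 46.0% ± 6.92 in the same order. The SyS-like share of Bcl7a was higher and that of Bcl7b lower than in each other class in 5 of 5 tumours, with an exact p of 0.0625 for each of the 6 differences, the smallest the design allows. The Bcl7c share, 63.7% ± 3.88 in SyS-like cells, exceeded that in endothelial-like and macrophage-like cells by 11.3 and 11.8 percentage points in 5 of 5 tumours. It exceeded the pericyte-like share in 4 of 5 (mean difference 3.62, exact permutation p = 0.125).

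**Figure D3:**
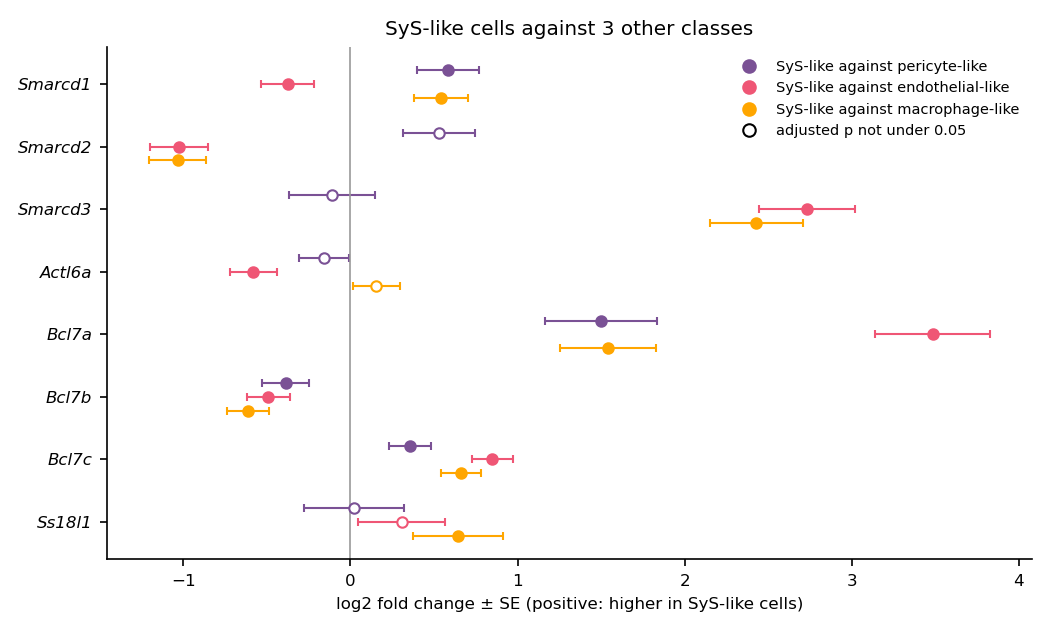
log2 fold change of SyS-like against pericyte-like, endothelial-like and macrophage-like cells (x axis, positive when higher in SyS-like cells; bars are the SE) for the 8 members tested, edgeR fit with TMM scaling. Filled points have an adjusted p under 0.05; Bcl7a and Smarcd3 reach 3.48 and 2.73 against endothelial-like cells, and the negative Bcl7b points move to -0.17, -0.21 and -0.04 with library totals alone.

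Actl6a, the subunit of dividing progenitors, was most abundant in endothelial-like cells, at 62.0 to 79.9 scaled CPM. It lay between 44.7 and 57.3 in SyS-like cells, between 38.8 and 69.5 in pericyte-like and between 33.2 and 60.6 in macrophage-like cells. The SyS-like level differed from the endothelial-like one by -0.58 on the log2 scale (SE 0.14, adjusted p = 0.00152), lower in 5 of 5 tumours with no overlap, and this shrank to -0.30 (adjusted p = 0.0759) with library totals alone. Endothelial-like cells were 0.73 above macrophage-like cells (SE 0.15, adjusted p = 2.92e-04), and pericyte-like differed from endothelial-like cells by -0.42 (SE 0.15, adjusted p = 0.0370). The last call was lost in 10 of 15 alternatives, among them without BP replicate 2, MP or MP+BP (adjusted p up to 0.210). SyS-like cells did not pass the test against macrophage-like (0.15, SE 0.14, adjusted p = 0.342) or pericyte-like cells (-0.16, SE 0.15, adjusted p = 0.406). With library totals alone the difference from macrophage-like cells was 0.73 (adjusted p = 2.26e-04) and was called, so this result depended on the scaling. Actl6a (ENSMUSG00000027671, chr3:32706298-32726973, plus strand) overlaps Mrpl47 on the other strand.

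Actl6b, the neuronal form, gave few UMIs anywhere. SyS-like cells held 56 UMIs for BP replicate 1, 63 for BP replicate 2, 76 for MP, 44 for MP+BP and 7 for PD+MP, that is 0.739, 0.612, 0.870, 0.632 and 0.0780 scaled CPM. The 95% Poisson interval of PD+MP reached 0.161 and lay below those of the other 4 tumours, the lowest of which began at 0.459, for counting error only. The other classes held 0 to 2 UMIs in a tumour, 2 in all pericyte-like, 6 in all endothelial-like and 4 in all macrophage-like cells. Actl6b made up 1.25% ± 0.655 of the pair's UMIs in SyS-like cells (SD, n = 5), 0.519% ± 0.837 in pericyte-like, 0.383% ± 0.386 in endothelial-like and 0.506% ± 0.741 in macrophage-like cells. Its share was higher in SyS-like than in endothelial-like cells in 5 of 5 tumours (exact permutation p = 0.0625), but only in 4 of 5 against the other 2 classes. Outside SyS-like cells a tumour held as few as 19 UMIs of the pair, so the depth there does not resolve shares of this size. Actl6b (ENSMUSG00000029712) spans chr5:137553517-137569582 on the plus strand.

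Ss18l1 (ENSMUSG00000039086, chr2:180042509-180070201, plus strand) had 6.04 ± 0.995 scaled CPM in SyS-like cells (SD, n = 5), 5.68 ± 1.76 in pericyte-like, 5.26 ± 1.15 in endothelial-like and 3.90 ± 1.69 in macrophage-like cells. The values of all 4 classes overlapped. It passed the test only against macrophage-like cells, 0.64 (SE 0.27, adjusted p = 0.0418), and lost the call in 10 of 16 alternatives, among them without BP replicate 1, MP or MP+BP (adjusted p up to 0.196). With library totals alone this difference grew to 1.23 (adjusted p = 4.30e-04). As a share of the Ss18 and Ss18l1 UMIs it was 8.72% ± 0.968 in SyS-like, 9.10% ± 2.19 in pericyte-like, 7.66% ± 2.15 in endothelial-like and 7.22% ± 2.92 in macrophage-like cells. None of the 6 differences between classes went 1 way in 5 tumours. Ss18 itself was 62.9 ± 4.83 in SyS-like and 49.6 ± 10.2 in macrophage-like cells, a log2 difference of 0.34 (SE 0.13, adjusted p = 0.0216), and did not pass the test against the other classes. Whether any reads of the human SS18::SSX2 transcript were counted as Ss18 was not tested.

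The other 19 BAF subunit genes, all tested, give the setting. SyS-like cells had 10 higher and 0 lower than pericyte-like cells, beside 29.5% and 15.2% of all genes. Against endothelial-like cells 9 were higher and 3 lower (all genes 33.7% and 24.3%). Against macrophage-like cells 9 were higher and 5 lower (all genes 39.6% and 27.3%). The median log2 differences of the 19 genes were 0.40, 0.26 and 0.27 in the same order, where all genes had medians of 0.21, 0.14 and 0.19. The largest called changes were in Smarca2, an ATPase of the complex, against pericyte-like cells (1.72, SE 0.18, adjusted p = 4.71e-07), in Dpf1, a subunit of the neuronal complex, against endothelial-like cells (1.64, SE 0.42, adjusted p = 0.00252) and in Dpf3, a further DPF paralogue, against macrophage-like cells (3.93, SE 0.35, adjusted p = 1.43e-08). Pericyte-like cells had 1 of the 19 higher and 5 lower than endothelial-like cells (all genes 16.3% and 20.2%). They had 2 higher and 7 lower than macrophage-like cells (all genes 24.4% and 27.8%). Between endothelial-like and macrophage-like cells 5 were higher and 4 lower (all genes 27.5% and 26.5%).

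Among tumours, PD+MP stood at an end of the SyS-like range for most members. The share of all genes for which it does so is not given here, so this does not set the members apart. PD+MP had the highest Smarcd1 (33.3 scaled CPM, others 19.5 to 29.0), Smarcd2 (23.4, others 15.2 to 20.2), Smarcd3 (18.2, others 12.9 to 15.4), Actl6a (57.3, others 44.7 to 46.7) and Bcl7a (32.9, others 17.7 to 22.7). It had the lowest Bcl7b (25.6, others 33.3 to 40.5), Ss18l1 (4.32, others 6.08 to 6.81) and Actl6b. With 1 tumour of this label there is no replicate error, and differences between labels and between tumours cannot be told apart. The labels do not give the sex of the mice. Uty and Eif2s3y, genes of the Y chromosome, were among the leading genes of a cluster that was 99.4% PD+MP. Whether sex differed between the tumours was not tested.

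**Figure D4:**
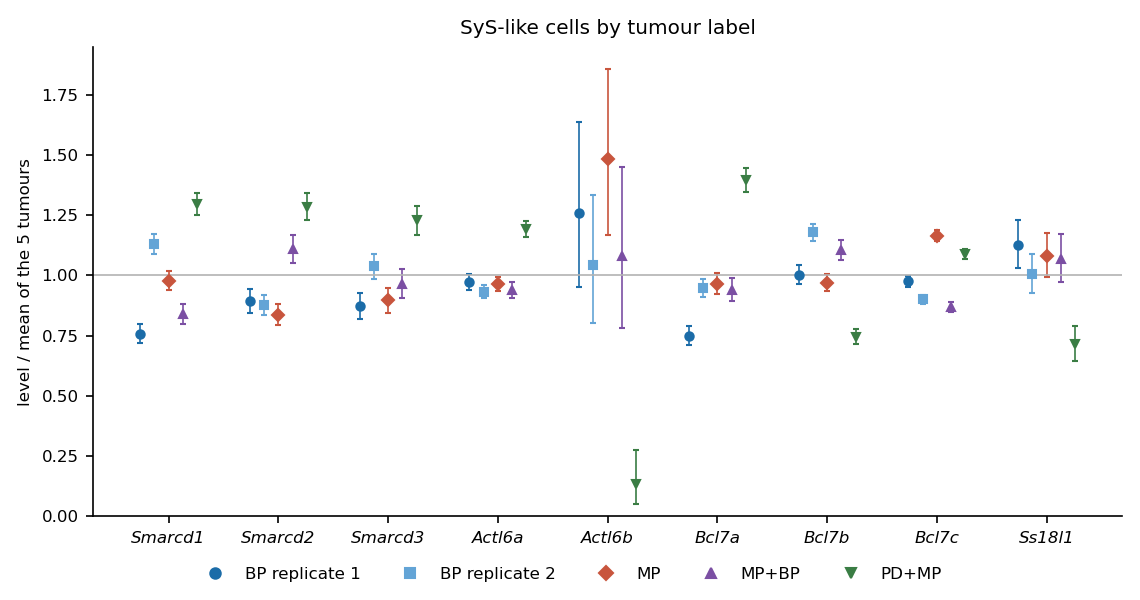
Scaled CPM of each member in SyS-like cells, divided by the mean of the 5 tumours (y axis, linear), with 95% Poisson intervals that cover counting error only. PD+MP is highest for Smarcd1, Smarcd2, Smarcd3, Actl6a and Bcl7a and lowest for Actl6b, Bcl7b and Ss18l1.

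The only split by histology with replicates is BP in the label (3 tumours) against no BP (MP and PD+MP). A number leads the label of each tumour and is the same for the BP pair, with no meaning given, so whether these came from separate animals is unknown. No member was called, and 0% of 18003 genes not used for clustering were, with edgeR. At an unadjusted p under 0.05 there were 0 of 9 members and 1422 of all genes, while DESeq2 called 0 members, with 240 genes higher and 57 lower. The count of 0 rested on MP, without which edgeR called 172 genes higher and 117 lower of 18607, and on no other single tumour. Bcl7a was lower in the 3 tumours with BP (17.7 to 22.3 scaled CPM) than in the other 2 (22.7 and 32.9), Bcl7c likewise (88.9 to 99.7 against 111 and 119), and Bcl7b was higher (34.4 to 40.5 against 25.6 and 33.3). The adjusted p was 0.592, 0.565 and 0.677. How many of all genes have ranges that do not overlap in this split is not given here. The separation of these 3 therefore does not set them apart from other genes. The log2 difference was -0.53 (SE 0.27) for Bcl7a, -0.40 (SE 0.17) for Bcl7c and 0.27 (SE 0.19) for Bcl7b. Without PD+MP it was -0.18 for Bcl7a and 0.13 for Bcl7b. Smarcd1 (-0.42), Actl6a (-0.29), Smarcd2 (-0.26) and Smarcd3 (-0.25) were lower and Actl6b (0.43) and Ss18l1 (0.16) higher in the fit, with SEs of 0.20 to 0.89. The last 4 of these changed sign without PD+MP.

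SyS-like cells with a high proliferation score held more Actl6a and Bcl7c. Within each tumour, the 25% of SyS-like cells with the largest share of UMIs from 16 proliferation genes, none of them a member, were set against the 50% with the smallest. Actl6a rose in all 5 tumours, from 48.2 ± 6.20 to 73.9 ± 9.13 CPM (SD, n = 5, ratios 1.36 to 1.69), a log2 difference of 0.58 (SE 0.06, adjusted p = 7.84e-05). Bcl7c rose in all 5 as well, from 108 ± 13.8 to 148 ± 19.8 CPM (ratios 1.33 to 1.42), a log2 difference of 0.41 (SE 0.04, adjusted p = 9.95e-05). Smarcd1 rose by 0.16 (SE 0.05, adjusted p = 0.0316), with ratios of 1.11 to 1.19, and lost the call when any 1 tumour was left out (adjusted p up to 0.169). These 3 of 9 members, and none lower, stood beside 18.3% of genes called higher and 19.1% lower.

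Bcl7a and Smarcd2 were also above their level in the low-score cells in 5 of 5 tumours but missed the threshold (log2 0.19 and 0.10, adjusted p = 0.0541 and 0.237). Smarcd3, Bcl7b, Ss18l1 and Actl6b were higher in 2 or 3 of 5. Proliferation-high cells were deeper, with a median of 10698 to 15368 UMIs per cell against 7758 to 11526. The share of proliferation UMIs at the upper limit was highest in PD+MP, 0.201% against 0.0220% to 0.0878% in the others. The limit below which cells counted as low was 0.0355% in PD+MP against 0.00692% to 0.0171% in the others, and lay above the upper limit of BP replicate 1 (0.0220%) and MP+BP (0.0325%), so the low-score cells were not matched in score between tumours. In them PD+MP held 58.3 CPM of Actl6a (others 43.5 to 49.9) and 40.2 CPM of Bcl7a (others 18.0 to 26.0). Of the other 19 subunits 8 were higher and 2 lower in proliferation-high cells, beside 18.3% and 19.1% of all genes. Dpf1 moved most (0.70, SE 0.20, adjusted p = 0.0239).

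**Figure D5:**
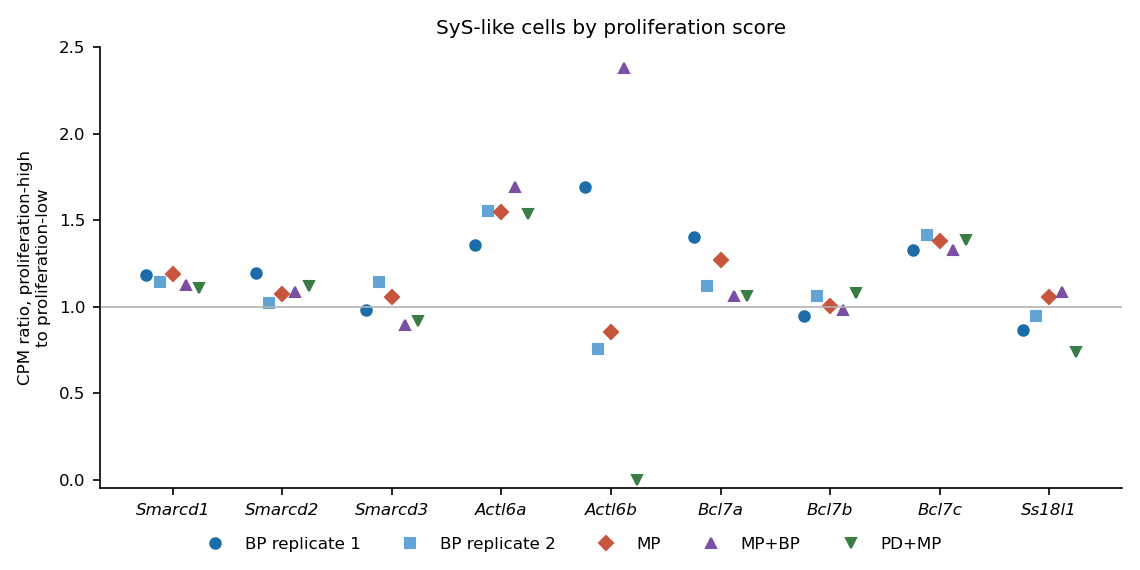
Ratio of CPM in the 25% of SyS-like cells with the highest proliferation score to that in the 50% with the lowest (y axis, linear, 1 marks no difference), 1 point per tumour. Actl6a (1.36 to 1.69) and Bcl7c (1.33 to 1.42) lie above 1 in all 5 tumours, and the Actl6b points rest on 0 to 27 UMIs.

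Over the 15 clusters of SyS-like cells, which were formed without the members, CPM varied from 38.6 to 93.1 for Actl6a, 76.6 to 175 for Bcl7c, 13.3 to 36.6 for Smarcd3 and 0 to 1.48 for Actl6b. Clusters are not replicates, and several are mostly 1 tumour. The highest Actl6a and Bcl7c levels were in a cluster led by Ccnb1 and Rrm2, genes of the cell cycle, all of whose 1167 cells came from PD+MP. The second highest Actl6a level, 81.2 CPM, was in a cluster led by Cdc20 and Ska1 with 55.9% of its cells from MP. Actl6b was highest, with 40 UMIs, in a cluster led by Nlgn1 and Luzp2 that was 95.3% MP. Smarcd3 was highest in a cluster of low depth (2929 UMIs per cell at the median) that was 99.4% PD+MP. The cluster led by the epithelial genes Rab25 and Cdh1, 79.9% from BP replicate 1, had 13.3 CPM of Smarcd3, the lowest of the 15, and 66.7 CPM of Actl6a.

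As a description of pattern, the genes outside the families whose unscaled log2(CPM + 1) followed each member most closely over the 20 class sums were listed, from 9784 genes of at least 10 CPM on average (9783 for Smarcd3). These sums share tumours and classes, so the correlations mainly reflect the 4 classes and carry no p. Smarcd3 was followed by Tgfb3 (r = 0.954) and Rgma (0.953), Smarcd2 by Mvb12b (0.962) and Dpagt1 (0.938), and Smarcd1 by Myh10 (0.919) and Tcf3 (0.914). Bcl7a was followed by Isyna1 (0.914) and Foxp4 (0.909) and Bcl7c by Polr1c (0.919) and Sept6 (0.912). Actl6a went with Xpnpep1 (0.932) and Glrx3 (0.905) and Ss18l1 with Phlpp2 (0.868) and 2610035D17Rik (0.868). Bcl7b had no close companion, with Pros1 (0.705) and Igfbp5 (0.652) the nearest. Tgfb3 itself, a secreted growth factor, averaged 52.3 CPM in SyS-like and 53.7 in pericyte-like cells against 5.16 in endothelial-like and 7.37 in macrophage-like cells.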

How the data were processed

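Single cells of 5 mouse tumours were profiled with droplet-based 3′ chemistry. Cell Ranger 7.2.0 is named per the file headers as the program the authors used, and mm10 as the build in the submitters' processing notes. What was deposited is a filtered matrix of whole-number UMI counts for each tumour, 89996321 to 118649103 per tumour, neither normalized nor corrected for free RNA. Of 32286 features, 32158 were in GENCODE M21 (GRCm38), which gave gene coordinates. Promoter stretches are from RefSeq (GRCm38.p6), and 8 of 9 members matched.

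Cells with at least 750 genes and at most 25% mitochondrial UMIs were kept, the limits of the study's methods. Doublets, for which the study used DoubletFinder, were scored per tumour with Scrublet in scanpy 1.11.5, and the highest scores up to the expected share (5.35% to 8.27%) were removed, because the automatic threshold marked no cell in 2 tumours. Clusters came from 3000 features by Pearson residuals, 30 components, 20 neighbours and Leiden (leidenalg 0.10.2) at resolution 1. Members, other BAF genes and proliferation genes were kept out of the features. Clusters were named from marker lists when at least 3 markers stood out, and 6595 cells stayed unnamed, 5818 of them in clusters with mostly SyS markers. Names are rebuilt here and may differ from the study's.

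Sums of UMI counts over the cells of a class in a tumour went into edgeR 4.0.16 (TMM, filterByExpr, quasi-likelihood test, adjusted p under 0.05), with SE as the absolute log2 fold change over the root of F. The tumour was a block because the classes of a tumour come from the same animal. Over 30 pairs of classes within a tumour, deviations from the class means correlated at 0.0724 to 0.380, over 0.1 in 27. When tested on simulated data with the same preset spread for every gene, the class fit recovered most changes of 2 on the log2 scale. It recovered a minority of changes of 1. That spread was not estimated from these data, so how often real differences of either size were missed is not known. Small differences can be missed. Background percentages are over tested genes that were not clustering features. Shares were compared by exact sign-flip permutation tests. Genes named were the 9 members, other BAF subunits with a member as partner or the largest called change, and the 2 genes of most similar pattern per member. Members and lists were chosen with earlier results of these data known. Alternatives were library totals, DESeq2 1.42.0, no low-count filter, no block, only the compared classes, thinned depth, each tumour left out, other doublet rules, at least 1500 genes per cell, resolution 0.5, other score or label splits and, chosen after seeing the data, the unnamed SyS clusters counted as SyS-like. P-values measure the spread between these tumours only, and intervals cover counting error only.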

Additional observations from a re-analysis of the deposited data

Results flagged for a closer look

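Each member's scaled CPM over the 5 tumours was searched for a single tumour far from the rest, in 28 combinations of member and class with at least 50 UMIs in all, of which chance would single out about 1 in 20. The search flagged 2 of the 28, close to that rate, so both may be chance. Actl6a in SyS-like cells of PD+MP, at 57.3 scaled CPM, stood apart from the other 4 tumours, which lay between 44.7 and 46.7. PD+MP also had the highest Actl6a within the SyS-like cells with a low proliferation score, 58.3 CPM against 43.5 to 49.9. These cells were not matched in score, since the limit for a low score was 0.0355% of UMIs in PD+MP and at most 0.0171% in the others, and the part of its higher proliferation score in the difference was not tested. Smarcd1 in pericyte-like cells of MP+BP, at 22.7 scaled CPM from 24 UMIs, stood apart from 13.4 to 15.9 in the others. The same pericyte-like sum held 7.57 scaled CPM of EGFP against at most 1.51 in the other tumours, and the part of RNA from SyS cells in it was not tested.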

How the results depend on the processing

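Over 32 member differences that were called, 489 values under alternatives gave 424 that were still called in the same direction, 65 no longer called and 0 reversed. Of 26 share differences with 1 direction in every tumour, 229 of 234 values moved by less than the spread between tumours, 5 by more and 0 reversed. Against pericyte-like cells, 4 members were called, but 1 in a fit of only those classes, 1 at thinned depth, 2 at the automatic doublet threshold and 2 to 3 with a tumour left out. Against endothelial-like cells 7 became 4 with library totals. For pericyte-like against macrophage-like cells 2 became 5 with library totals, 4 with DESeq2 and 4 in a fit of those classes. For the proliferation score 3 became 1 with no replicate block, and 2 with any tumour left out. The fit with no replicate block took away the calls named in the next sentence and no other. They were Smarcd1 against endothelial-like, Ss18l1 against macrophage-like, Bcl7c against pericyte-like, Actl6a between pericyte-like and endothelial-like cells, and Smarcd1 and Bcl7c with the proliferation score. Among differences that were not called, Smarcd3 against pericyte-like cells turned to 0.11 with library totals and 0.051 with no low-count filter, and ran from -0.31 to 0.16 with a tumour left out. Actl6a there turned to 0.061 and 0.023 in the first 2 settings. For the biphasic label, 0 genes were called, against 172 higher and 117 lower without MP and 240 and 57 with DESeq2. There, leaving out a tumour gave -0.63 to 0.15 for Smarcd2, -0.56 to 0.0496 for Smarcd3, -0.45 to 2.86 for Actl6b and -0.0696 to 0.37 for Ss18l1, all changing sign without PD+MP. Of 34 such uncalled differences, 19 changed sign in at least 1 alternative. The cause was not tested. No paired analysis was possible for the biphasic label because each tumour has 1 label. Few UMIs in pericyte-like and endothelial-like cells of PD+MP, and in Actl6b everywhere, limit the precision.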

Other observations

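T or NK-like cells, 331 in all with 1021817 UMIs, lie outside the class comparisons. Summed over tumours they held 50.9 CPM of Smarcd2 (52 UMIs, 95% Poisson interval 38.0 to 66.7, unscaled), and Smarcd2 made up 69.3% of their SMARCD UMIs, with 2.67% for Smarcd3 (2 UMIs). Ss18 reached 247 CPM there (252 UMIs, interval 217 to 279), from 123 to 286 in single tumours, while SyS-like, pericyte-like, endothelial-like and macrophage-like cells summed to 41.9 to 75.2 CPM. Ss18l1 was then 2.70% of the pair (7 UMIs). Dendritic-like cells resembled macrophage-like cells in their SMARCD shares, with 71.6% Smarcd2 and 2.70% Smarcd3 from 148 UMIs. Fibroblast-like cells, 149 in all, had 59.0% Smarcd2 and 13.3% Smarcd3 (11 UMIs), against 26.3% and 37.7% in pericyte-like cells summed the same way. Of the fibroblast-like cells 82.6% came from PD+MP, which gave 38 of the 1251 pericyte-like cells. Class and tumour cannot be told apart in that contrast. The levels and shares in these classes cover counting error only and were not tested.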
